A study of Mus musculus with 16 samples.

Results

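Integrins are the receptors by which cells hold on to matrix and to each other, and laminins are the matrix proteins of the basement membrane that several of them bind. The genes described here are the 38 of 20101 with an Entrez number whose symbol begins with Itga or Itgb (binding proteins such as Itgb1bp1 left out) or names a laminin chain (Lama, Lamb or Lamc with a number). They comprise 28 integrin genes and 10 laminin chains. The integrin genes were divided by where they are mainly used: 9 leukocyte integrins (Itgal, Itgam, Itgax, Itgad, Itgae, Itga4, Itgb2, Itgb2l, Itgb7), 17 stromal integrins of matrix-bound cells, the platelet integrin Itga2b and the integrin-like Itgbl1.

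RNA-seq was done on the fat pad beside the epididymis (eWAT) of 16 mice aged 21 weeks, 4 per group. Chow with 5% fat was the control diet, and the high-fat diet (HFD, 60% fat) was given from the age of 5 weeks. The 4 groups are named here after the sample titles: chow WT and HFD WT, chow KO and HFD KO. The genotype field of the KO-labelled mice reads ApoA4 knockdown, and the sources used here do not give the allele, strain, sex or means of knockdown. Replicate numbers 1 to 4 name the mouse within a group.

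An integrin is a pair of 1 alpha and 1 beta chain. Leukocytes carry the beta chain Itgb2 with 1 of 4 alpha chains, and use these pairs to stop on vessel walls, to enter tissue and to take up particles. Macrophages that gather in the fat of obese mice are known for the Itgam and Itgax pairs. Cells of the stroma mostly use Itgb1 or the Itgav pairs, which bind fibronectin, collagen, laminin and other matrix. Each laminin is a trimer of an alpha, a beta and a gamma chain. Every adipocyte is wrapped in a basement membrane in which Lama4 is a main alpha chain, and vessels and nerves have their own laminins.

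The unit is FPKM, sequenced fragments divided by transcript length and library size, so levels of different genes can be set side by side per length. Differences are given on the log2(FPKM + 1) scale with their SE, which understates the change of low genes, and a gene rose or fell where limma's adjusted p was under 0.05 over the 12667 genes that reached 1 FPKM in 4 or more libraries. Of the 38 genes, 30 were tested: 8 leukocyte and 12 stromal integrins, Itgbl1 and 9 laminin chains. Itgad passed the filter through the 8 HFD libraries and Itgae through 4 chow libraries. Lama3 was at 1 FPKM or more in 4 libraries, Itgb4 in 9 and Lamb3 in 12, and each of the 25 others in at least 13. Itgb2l, Itga2, Itga8, Itga10, Itgb6, Itgb8, Itga2b and Lama1 stayed under the filter. The filter favours a difference in genes that pass through the group in which they are high. Counts over tested genes thus describe those genes and not the whole families.

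The RNA of the targeted gene went against the label. Apoa4 was listed at 0 to 0.29 FPKM in the 8 WT-labelled libraries and at 1.96 to 9.63 FPKM in the 8 KO-labelled ones, so WT and KO stand for the labels only. The adipocyte marker list summed to 3471 to 41387 FPKM, with no marker at 0 in any library. In 3 libraries markers of the epididymis were present: 12395 FPKM in chow KO 2, 5459 in HFD KO 4 and 365 in HFD KO 2, against at most 51.7 in the 13 others. HFD KO 2 also had 1514 FPKM of mural and smooth muscle markers against at most 417 elsewhere. The relative depth, from the steps of circular RNA entries, was 0.934 to 1.03 in chow WT and 0.761 to 0.887 in chow KO, without overlap. It was 1.04 to 1.24 in HFD WT and 0.896 to 1.44 in HFD KO. Its part in the differences between diets and between genotype labels was not tested. In bulk tissue, fewer cells of a type and less RNA per cell cannot be told apart.

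Among WT-labelled mice, most leukocyte integrins and some stromal integrins rose on the high-fat diet, and 3 laminin chains fell. Of the 30 tested genes 9 rose and 4 fell, which is 30% and 13.3% against 24.6% and 17.2% of all tested genes. The shares of the whole set were close to the background, and differences between the classes below were not tested. Of 8 leukocyte integrins 5 rose and 1 fell, with a median difference of 1.79. Itgad and Itgae reached 1 FPKM on 1 diet only, which favours a difference, and of the 6 others 4 rose and 0 fell. Of 12 stromal integrins 4 rose and 0 fell (median 0.42), and of 9 laminin chains 0 rose and 3 fell (median -0.11). The median of all tested genes was 0.06. The number that fell dropped from 4 to 2 without chow WT 3 or HFD WT 3.

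Among KO-labelled mice 13 of 30 rose and 1 fell, or 43.3% and 3.33% against 23.5% and 15.3% of all tested genes. Of 8 leukocyte integrins 6 rose (median 1.91; 5 of 6 without Itgad and Itgae), of 12 stromal integrins 7 rose (median 0.71), and of 9 laminin chains 0 rose and 1 fell (median -0.09). The median of all tested genes was 0.08. The number that fell was 2 without chow KO 2 or chow KO 4 and 3 without HFD KO 2, and with quantile normalization 12 rose and 4 fell. Scaling bears on all such splits: of all tested genes 3121 rose and 2183 fell in WT-labelled mice, but 2493 and 2953 with quantile normalization, which lowered the median of all genes by 0.10 there. In KO-labelled mice the numbers were 2979 and 1943, against 2279 and 3105 with quantile normalization (median lowered by 0.15) and 2573 and 2609 with median-of-ratios scaling.

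**Figure D1:**
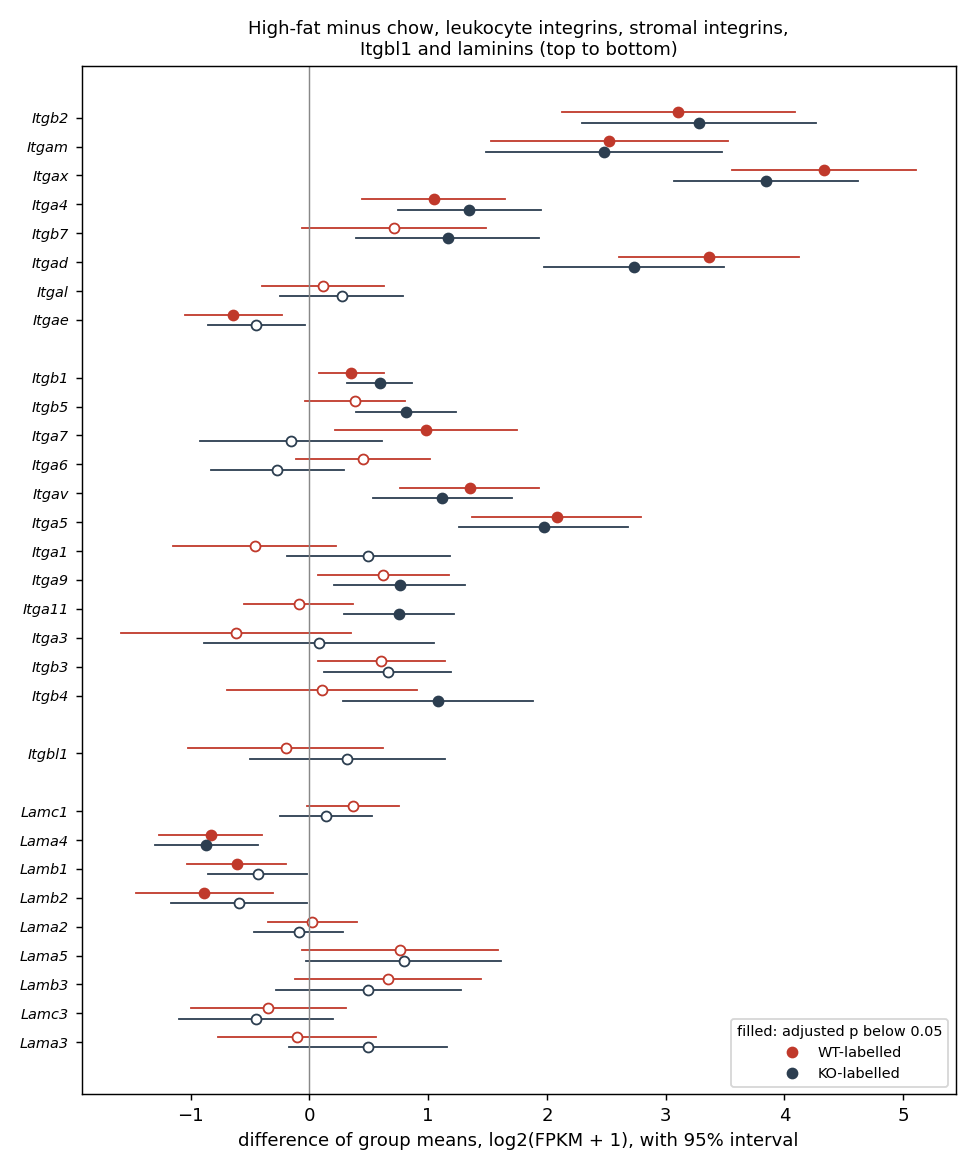
Difference between HFD and chow group means on the log2(FPKM + 1) scale with its 95% interval for the 30 tested genes, in WT-labelled (red) and KO-labelled (dark) mice, filled where the adjusted p was under 0.05. The largest differences, 4.33 and 3.84, are those of Itgax, and the lowest filled points are Lamb2 at -0.88 (WT-labelled) and Lama4 at -0.87 (KO-labelled).

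The shift between classes was visible in each library. Summed over the 9 leukocyte integrins, the level was 32.4 to 53.9 FPKM in the 8 chow libraries and 158 to 953 FPKM in the 8 HFD libraries. The 17 stromal integrins summed to 252 to 312 FPKM on chow and to 320 to 471 FPKM on HFD. Of the summed FPKM of these 2 classes, without Itga2b and Itgbl1, leukocyte integrins made up 16.3%, 13.6%, 14.8% and 13.4% in chow WT. In chow KO they made up 14.8%, 15.2%, 11.2% and 12.8%. On HFD the shares were 28.7%, 55.7%, 66.9% and 39.8% in HFD WT and 50.4%, 48.6%, 48.3% and 33.1% in HFD KO. Every HFD library lay above every chow library, and the HFD WT libraries were the most spread. The laminin chains showed no such separation: they summed to 189.7 to 286 FPKM on chow and 150.2 to 298 FPKM on HFD.

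**Figure D2:**
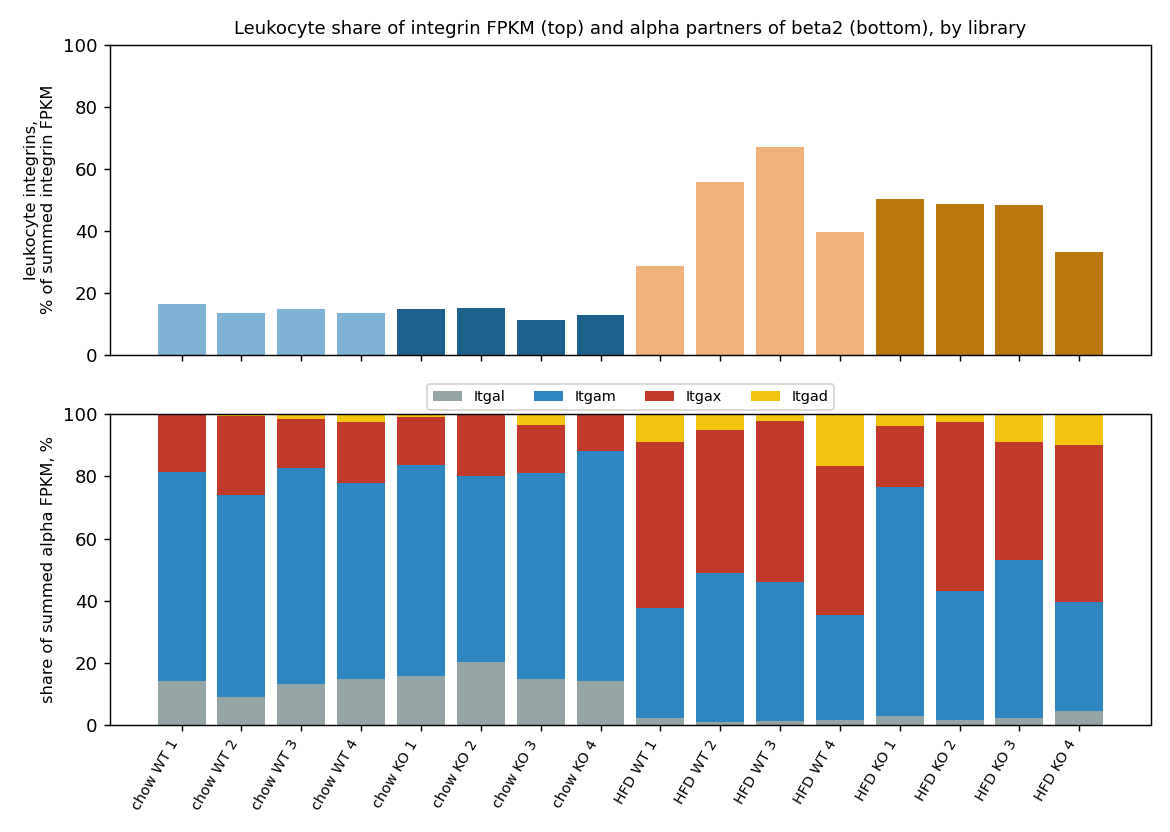
Top, leukocyte integrins as a percentage of the summed FPKM of leukocyte and stromal integrins in each library. Bottom, the share of each alpha chain in the summed FPKM of the alpha partners of Itgb2. The 8 chow libraries lie between 11.2% and 16.3% in the top panel and the 8 HFD libraries between 28.7% and 66.9%, and the Itgax share (red) is larger in most HFD libraries but not in HFD KO 1.

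Itgb2 (CD18), the beta chain shared by the leukocyte pairs (GRCm38.p6, chromosome 10, 77530329 to 77565708), was the most expressed leukocyte integrin. Its levels were 25.1, 25.4, 25.3 and 23.1 FPKM in chow WT, 19.8, 20.8, 13.6 and 19.0 in chow KO, 89.1, 335, 564 and 139.7 in HFD WT and 267, 221, 229.5 and 85.3 in HFD KO. The 4 HFD libraries of each genotype lay above all chow libraries, with a wide spread within HFD WT. The mean went from 24.7 ± 1.10 to 282 ± 216 FPKM (SD, n = 4) in WT-labelled mice, a rise of 3.11 ± 0.46 (adjusted p = 0.000181). Among KO-labelled mice it went from 18.3 ± 3.21 to 201 ± 79.5 FPKM, a rise of 3.28 ± 0.46 (adjusted p = 0.000188). On chow Itgb2 was 8th in level among the 38 genes in WT-labelled mice, and on HFD it was first in both genotypes, though its mean did not differ from that of Itgb1, 186 ± 19.4 in HFD WT and 173 ± 29.2 in HFD KO, by more than its SD.

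Itgax (CD11c) marks dendritic cells and the macrophages of obese fat. Values by mouse were 3.47, 4.12, 2.68 and 3.19 FPKM in chow WT, 2.46, 3.09, 1.75 and 1.68 in chow KO, 47.5, 91.6, 186 and 68.3 in HFD WT and 28.9, 73.9, 61.3 and 30.8 in HFD KO. No HFD value overlapped a chow value, and the lowest HFD library was HFD KO 1. The difference was 4.33 ± 0.36 in WT-labelled mice (adjusted p = 2.48e-06) and 3.84 ± 0.36 in KO-labelled mice (adjusted p = 1.34e-05), the largest among the 30 tested genes in both.

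Itgam (CD11b) is the alpha chain of the complement receptor of macrophages, monocytes and neutrophils. The libraries gave 12.6, 10.6, 11.9 and 10.1 FPKM in chow WT, 10.9, 9.48, 7.56 and 10.5 in chow KO, 31.0, 95.3, 161 and 48.7 in HFD WT and 108, 56.9, 82.8 and 21.4 in HFD KO. The groups did not overlap between diets in either genotype, and HFD KO 4 came closest to the chow range. Itgam rose by 2.53 ± 0.47 (adjusted p = 0.000808) in WT-labelled and by 2.48 ± 0.47 (adjusted p = 0.00123) in KO-labelled mice. In the annotation, 68.7% of the exon bases of Itgam are also exon bases of the gene model Gm49368 on the same strand. That model has no value of its own here, so reads of the 2 cannot be told apart.

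Itgad (CD11d), carried by subsets of tissue macrophages, was almost undetected on chow. Measured levels were 0.04, 0.09, 0.24 and 0.37 FPKM in chow WT, 0.12, 0.02, 0.39 and 0 in chow KO, 7.73, 9.77, 8.23 and 23.9 in HFD WT and 5.48, 3.33, 14.5 and 6.12 in HFD KO. Every HFD library was above 3 FPKM and every chow library under 0.4 FPKM, and HFD WT 4 stood apart at 23.9. The differences, 3.36 ± 0.35 and 2.73 ± 0.35, are given as a description, since Itgad passed the filter through the HFD libraries alone. Exons of Itgad overlap the pseudogene Gm17831 on the same strand by 330 bases. On the other strand they overlap exons of 4931431B13Rik by 388 bases, Gm39091 by 102 and Cox6a2 by 70. The sources used here do not say whether reads kept their strand. Cox6a2 itself was at 0 to 0.3 FPKM on chow and 2.21 to 5.28 FPKM on HFD, a rise of 1.92 and 1.67.

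The genes of these alpha chains lie side by side on chromosome 7 (GRCm38.p6): Itgam at 128062640 to 128118491, Itgax 11.03 kb after it and Itgad 23.3 kb after that, while Itgal lies 728 kb before Itgam. Promoter sequences, the 250 bases before a transcript start in the RefSeq promoter table, are shown for the neighbours Itgam and Itgax, which both rose, and for the strongest rise among stromal integrins (Itga5) and the strongest fall among laminins in WT-labelled mice (Lamb2). The Itgax and Lamb2 windows run a few bases into the gene as bounded in the gene table. All are on GRCm38.p6, 5′ to 3′ on the strand of the gene, and capitals mark the letters GAGGAA or, on the other strand, TTCCTC, the core bound by PU.1, a factor of myeloid cells.
Itgam, chr7:128062390-128062639, plus strand: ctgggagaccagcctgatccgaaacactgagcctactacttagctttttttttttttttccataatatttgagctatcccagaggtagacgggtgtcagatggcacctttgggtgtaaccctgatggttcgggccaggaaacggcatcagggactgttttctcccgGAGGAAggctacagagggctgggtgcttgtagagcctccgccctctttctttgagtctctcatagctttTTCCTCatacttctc
Itgax, chr7:128129300-128129549, plus strand: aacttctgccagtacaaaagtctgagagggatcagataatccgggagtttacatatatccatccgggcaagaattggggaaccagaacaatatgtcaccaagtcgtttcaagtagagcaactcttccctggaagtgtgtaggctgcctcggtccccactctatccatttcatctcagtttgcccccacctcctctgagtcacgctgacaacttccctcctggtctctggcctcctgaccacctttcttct
Itga5, chr15:103366792-103367041, minus strand: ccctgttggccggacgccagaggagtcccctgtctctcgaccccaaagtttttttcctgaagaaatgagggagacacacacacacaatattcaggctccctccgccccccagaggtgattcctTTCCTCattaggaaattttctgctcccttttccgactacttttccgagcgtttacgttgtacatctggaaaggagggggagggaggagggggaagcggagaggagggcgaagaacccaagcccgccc
Lamb2, chr9:108479612-108479861, plus strand: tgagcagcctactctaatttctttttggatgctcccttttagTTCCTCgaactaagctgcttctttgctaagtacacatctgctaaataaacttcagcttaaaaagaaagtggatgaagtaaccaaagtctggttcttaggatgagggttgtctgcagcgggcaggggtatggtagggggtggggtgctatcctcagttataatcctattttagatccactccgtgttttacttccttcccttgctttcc

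The Itgam window holds the motif at -84 and -15 from the start, Itga5 at -127 and Lamb2 at -208, and the Itgax window holds none. A window was found for 25 of the 38 genes, 28 windows in all, and 14 of these held the motif, against 23.25% of 32851 windows of the same length. By class, 2 of 5 leukocyte windows, 6 of 15 stromal windows and 5 of 6 laminin windows held it. The single window of Itga2b held it and that of Itgbl1 did not. CpG pairs were fewer in the leukocyte windows (median 5, range 1 to 6) than in the stromal ones (median 12, range 2 to 22), with a median of 6 over all windows and 3 over the laminin windows. These are descriptions of letters, not of binding.

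Itgal (CD11a), the alpha chain of the lymphocyte pair LFA-1, did not pass the test, unlike Itgam and Itgax on the same chromosome. Itgad is left out of this contrast, as it passed the filter through the HFD libraries alone. Levels of Itgal were 2.68, 1.46, 2.21 and 2.36 FPKM in chow WT, 2.51, 3.17, 1.66 and 1.99 in chow KO, 2.04, 1.59, 4.59 and 2.03 in HFD WT and 4.2, 1.93, 3.37 and 2.7 in HFD KO. All groups overlapped in Itgal, and its differences were 0.11 ± 0.24 (adjusted p = 0.735) and 0.27 ± 0.24 (adjusted p = 0.396), with 95% intervals of -0.40 to 0.63 and -0.25 to 0.79. Within the alpha partners of Itgb2, the Itgax share was 11.9% to 25.3% in chow libraries and 46.2% to 54.3% in 6 of the HFD libraries. The 2 others were HFD KO 1 at 19.7% and HFD KO 3 at 37.9%. The ratio of Itgax to Itgam was 0.16 to 0.39 in the chow libraries, 1.53, 0.96, 1.16 and 1.40 in HFD WT and 0.27, 1.30, 0.74 and 1.44 in HFD KO. The ratio of HFD KO 1 thus lay within the chow range, while its summed macrophage markers (8960.4 FPKM) were the highest of all 16 libraries. So was its granulocyte and mast cell marker sum, at 396.64 FPKM against at most 181.17 FPKM elsewhere. The part of these cells in the ratio was not tested.

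Itga4, the alpha chain that binds Vcam1 on vessels with Itgb1 or Itgb7, was at 4.45, 3.91, 4.93 and 4.6 FPKM in chow WT, 3.67, 3.25, 4.16 and 3.42 in chow KO, 5.69, 13.4, 15.3 and 9.23 in HFD WT and 16.2, 8.55, 15.2 and 6.15 in HFD KO. The HFD values lay above the chow values of the same genotype, and HFD WT 1 and HFD KO 4 were nearest to them. Itga4 rose by 1.05 ± 0.28 (adjusted p = 0.0085) and by 1.35 ± 0.28 (adjusted p = 0.00222). Its exons overlap those of Cerkl on the other strand by 1124 bases, and Cerkl was at 0.12 to 0.67 FPKM in all libraries.

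Itgb7, a beta chain of gut-homing lymphocytes and mast cells, was at 4.38, 2.79, 4.38 and 3.51 FPKM in chow WT, 4.32, 3.28, 2.67 and 2.92 in chow KO, 3.02, 9.75, 12.7 and 5.01 in HFD WT and 14.7, 5.15, 12.2 and 5.46 in HFD KO. The HFD KO values all exceeded the chow KO values, whereas HFD WT 1 fell within the chow WT range. Itgb7 rose in KO-labelled mice, by 1.16 ± 0.36 (adjusted p = 0.0199), a call lost without chow KO 3, HFD KO 1 or HFD KO 3 (adjusted p 0.0526 to 0.0714). The difference in WT-labelled mice was 0.71 ± 0.36 (adjusted p = 0.127) and passed the threshold without HFD WT 1 (adjusted p 0.0227).

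Itgae (CD103), the partner of Itgb7 on lymphocytes of epithelia, had its highest values on chow: 1.08, 0.64, 1.21 and 0.75 FPKM in chow WT, 1.07, 1.86, 0.56 and 0.47 in chow KO, 0.22, 0.16, 0.2 and 0.31 in HFD WT and 0.55, 0.33, 0.45 and 0.31 in HFD KO. The WT-labelled diet groups did not overlap and the KO-labelled ones did. Itgae passed the filter through chow libraries alone, so its tests support nothing on their own. It fell by 0.64 on the log2 scale in WT-labelled mice (SE 0.19, adjusted p = 0.0152), and the difference in KO-labelled mice was -0.45 ± 0.19 (adjusted p = 0.0773), past the threshold without chow KO 4 (adjusted p 0.0365). Itgae went untested where leaving out a chow library above 1 FPKM put it under the filter, and also with median-of-ratios scaling. Itgb2l, an Itgb2-like beta chain, was at most 0.19 FPKM in any library.

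**Figure D3:**
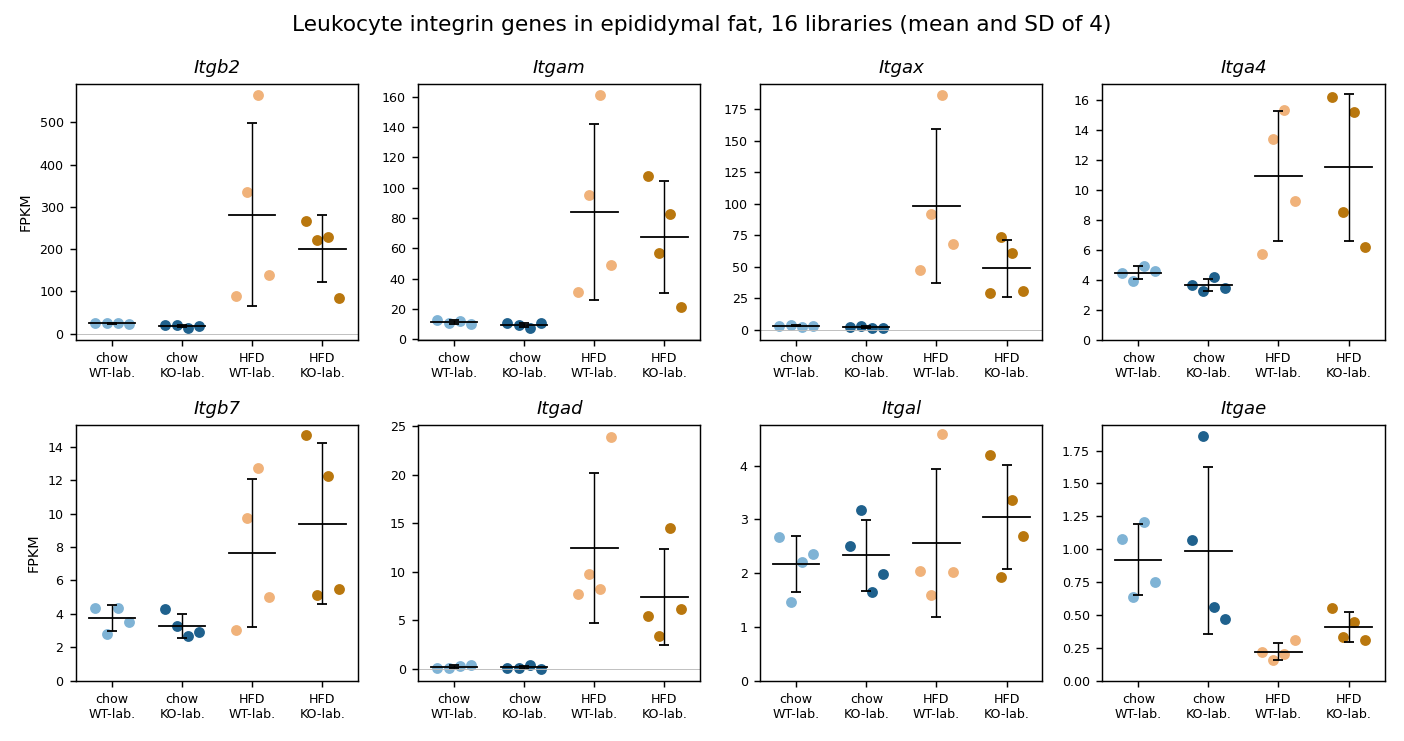
FPKM of the 8 tested leukocyte integrins in each of the 16 libraries, with the mean (line) and SD (bar) of the 4 mice of each group, on linear axes of different range. Itgb2, Itgam, Itgax and Itgad are higher in every HFD library than in any chow library, Itgal overlaps in all groups, and Itgae is highest on chow.

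Summed markers of macrophages were higher in every HFD library than in any chow library, as were Itgb2, Itgam, Itgax and Itgad. Itgal and Itgae did not follow. HFD KO 1 had the highest marker sum and the lowest Itgax of the HFD libraries (28.9 FPKM). The list of 12 summed to 967 to 1365 FPKM in the chow libraries and to 1889, 6194, 7483 and 4035 FPKM in HFD WT and 8960.4, 4174, 6830 and 2721 FPKM in HFD KO. None of its markers was at 0 in any library, and 9 rose and 1 fell in WT-labelled mice, 10 and 1 in KO-labelled mice. The risen shares were 75% and 83.3%, against 24.6% and 23.5% of all tested genes, of which 17.2% and 15.3% fell. Of 8 tested T and NK cell markers 0 rose and 3 fell in WT-labelled mice and 1 rose in KO-labelled mice. The granulocyte and mast cell list had 2 and 3 risen of 6 tested, dendritic cells 0 risen and 1 fallen, then 1 and 1, of 4, and B cells 0 of 3 in both genotypes. The part of cell numbers in the leukocyte integrin differences was not tested.

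The stromal integrins are given by ligand: proteins with the RGD letters such as fibronectin, then laminin and collagen. Of 4 tested RGD receptors (Itga5, Itgav, Itgb3, Itgb5), 2 rose in WT-labelled and 3 in KO-labelled mice. Of 4 laminin receptors (Itga3, Itga6, Itga7, Itgb4) 1 rose in each genotype, and of 2 tested collagen receptors (Itga1, Itga11) 0 rose in WT-labelled and 1 in KO-labelled mice. These groups are small, and 1 of 4 is about the share of all tested genes that rose (24.6% and 23.5%).

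Itga5, the alpha chain of the fibronectin receptor (GRCm38.p6, chromosome 15, 103344286 to 103366791), had the levels 6.8, 5.39, 6.83 and 6.79 FPKM in chow WT, 5.59, 4.23, 4.72 and 5.77 in chow KO, 17.4, 41.9, 46.7 and 25.0 in HFD WT and 36.9, 25.6, 27.7 and 9.99 in HFD KO. No HFD value overlapped a chow value, and HFD KO 4 was the lowest of the HFD values. Itga5 rose by 2.08 ± 0.33 (adjusted p = 0.000309) and 1.97 ± 0.33 (adjusted p = 0.00065).

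Itgav pairs with several beta chains and binds RGD proteins such as vitronectin and osteopontin, and activates latent TGF-beta. It was at 12.7, 12.4, 14.4 and 13.0 FPKM in chow WT, 14.1, 23.0, 10.98 and 12.4 in chow KO, 23.9, 46.7, 45.9 and 28.9 in HFD WT and 47, 27.5, 41.9 and 21.0 in HFD KO. HFD KO 4 lay under the highest chow KO value, that of chow KO 2, and the WT-labelled groups did not overlap. Itgav rose by 1.35 ± 0.27 (adjusted p = 0.00149) and 1.12 ± 0.27 (adjusted p = 0.00559).

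Of its beta partners, Itgb5 rose in KO-labelled mice, by 0.81 ± 0.20 (adjusted p = 0.00529). Values by mouse were 55.4, 58.3, 61.4 and 58.8 FPKM in chow WT, 39.3, 28.7, 55.3 and 50.6 in chow KO, 61.7, 80.3, 88.6 and 78.6 in HFD WT and 91.0, 76.2, 84.0 and 53.7 in HFD KO. HFD KO 4 overlapped the chow KO range, and the difference in WT-labelled mice was 0.39 ± 0.20 (adjusted p = 0.129). Itgb3, the other classic Itgav partner, was at 1.07 to 4.99 FPKM, with differences of 0.61 ± 0.25 (adjusted p = 0.0656) and 0.66 ± 0.25 (adjusted p = 0.0501) that passed the threshold without HFD WT 1 (adjusted p 0.0124) and without HFD KO 4 (adjusted p 0.00843). Itgb6 and Itgb8, also partners, were under the filter, and Itgb1, counted here as a partner too, is described below.

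Itgb1, the beta chain of most matrix receptors, was the most expressed integrin on chow. It was at 131, 157, 139 and 156 FPKM in chow WT, 112, 116, 110.3 and 115 in chow KO, 166, 203, 203 and 173 in HFD WT and 195, 163, 199 and 137 in HFD KO. The HFD values lay above the chow values of the same genotype without overlap, by a small step. Itgb1 rose by 0.59 ± 0.13 in KO-labelled mice (adjusted p = 0.00298). In WT-labelled mice it rose by 0.35 ± 0.13 (adjusted p = 0.0403), and this call was lost without chow WT 1, chow WT 2, chow WT 3, chow WT 4, HFD WT 2 or HFD WT 3 (adjusted p 0.0514 to 0.112) and under quantile or median-of-ratios scaling.

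Itga7, a laminin receptor known from muscle and vessel walls, differed between the HFD groups in spread. The libraries gave 25.4, 31.0, 28.3 and 27.8 FPKM in chow WT, 37.9, 20.7, 32.6 and 37.7 in chow KO, 107, 27.1, 44.7 and 76.7 in HFD WT and 17.1, 23.4, 37.8 and 40.7 in HFD KO. HFD WT 1 and 4 were far above the rest, HFD WT 2 fell within the chow WT range, and the KO-labelled diet groups overlapped. Itga7 rose by 0.98 ± 0.36 in WT-labelled mice (adjusted p = 0.039), a call lost without chow WT 1, chow WT 2, chow WT 3, chow WT 4, HFD WT 1 or HFD WT 4 (adjusted p 0.0609 to 0.115) and with 2 of 3 other scalings, and the difference in KO-labelled mice was -0.15 ± 0.36 (adjusted p = 0.76). Itga6, the main laminin receptor of epithelia and endothelium, was at 16.4 to 55.2 FPKM, with HFD WT 1 and 4 again the highest. Its differences were 0.45 ± 0.26 (adjusted p = 0.184), past the threshold without HFD WT 3 (adjusted p 0.0496), and -0.27 ± 0.26 (adjusted p = 0.434).

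Itga9, a receptor of tenascin and osteopontin, was at 3.36, 2.67, 2.96 and 3.24 FPKM in chow WT, 4.11, 6.17, 2.31 and 3.17 in chow KO, 2.96, 5.67, 6.51 and 6.58 in HFD WT and 9.27, 7.89, 7.52 and 4.34 in HFD KO. Chow KO 2 and HFD KO 4 overlapped. It rose by 0.76 ± 0.26 in KO-labelled mice (adjusted p = 0.0302), lost without chow KO 3, chow KO 4, HFD KO 1, HFD KO 2 or HFD KO 3 (adjusted p 0.0655 to 0.101). The difference in WT-labelled mice was 0.62 ± 0.26 (adjusted p = 0.0654), past the threshold without HFD WT 1 (adjusted p 0.0117).

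Itga11, the collagen receptor of fibroblasts, was at 3.71, 3.11, 4.07 and 3.69 FPKM in chow WT, 2.77, 1.3, 3.04 and 2.12 in chow KO, 3.65, 3.87, 2.8 and 3.16 in HFD WT and 6.13, 5.48, 4.61 and 2.41 in HFD KO. The chow KO values were the lowest group, and HFD KO 4 fell among them. Itga11 rose by 0.75 ± 0.22 in KO-labelled mice (adjusted p = 0.0132), a call lost with quantile normalization (adjusted p 0.0874), and the difference in WT-labelled mice was -0.09 ± 0.22 (adjusted p = 0.762). Itga1, the collagen receptor of vessel walls and stroma, was at 4.61 to 19.95 FPKM, lowest in HFD WT 2 and highest in HFD KO 2, with differences of -0.46 ± 0.32 (adjusted p = 0.263) and 0.50 ± 0.32 (adjusted p = 0.235). In WT-labelled mice it passed the threshold without HFD WT 1 (adjusted p 0.0441).

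Several integrin and laminin genes of epithelia had their highest values in the libraries with epididymal transcripts. Others did not: Lamb3 and Itga6 were highest in HFD WT 1, at 6.38 and 55.2 FPKM. Lamb3 was at 2.41 FPKM in chow KO 2, 4.19 in HFD KO 2 and 2.09 in HFD KO 4. Itgb4, the partner of Itga6 in the anchors of epithelial cells, was at 1.77, 0.56, 0.67 and 1.02 FPKM in chow WT, 0.94, 2.55, 0.23 and 0.61 in chow KO, 1.53, 0.61, 0.75 and 1.75 in HFD WT and 2.03, 7.22, 1.39 and 3.59 in HFD KO. It rose by 1.08 ± 0.38 in KO-labelled mice (adjusted p = 0.0337), lost without chow KO 1, chow KO 3, chow KO 4, HFD KO 2 or HFD KO 4 (adjusted p 0.0597 to 0.107), and the difference in WT-labelled mice was 0.11 ± 0.38 (adjusted p = 0.842). Within both KO-labelled groups the highest Itgb4 values were those of the 3 libraries with epididymal markers. Leaving out these 3 libraries together did not end the call.

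Itga3, a laminin receptor of epithelia, was at 11.7 FPKM in chow KO 2, 9.28 in HFD KO 2 and 4.96 in HFD KO 4, and at 1.07 to 3.55 FPKM in the others. Itgb6, which pairs with Itgav in epithelia, was at 1.12, 4.07 and 1.93 FPKM in these 3 and at most 0.05 elsewhere. Lama3, an alpha chain of epithelial laminin, was at 2.37, 2.1 and 2.69 FPKM in the same order. The list of mesothelial and keratin genes summed to 380, 386 and 208 FPKM in these libraries and to at most 146 in the others. The keratin genes Krt8 (103, 56.6 and 66.0 FPKM) and Krt18 (114, 83.3 and 105 FPKM) carried much of these sums, whereas the mesothelial marker Msln was at 7.08, 3.46 and 2.32 FPKM there and at 3.7 to 15.9 elsewhere. Of the 10 genes of this list 0 rose and 5 fell in WT-labelled mice and 0 rose and 4 fell in KO-labelled mice. The fallen shares were 50% and 40%, against 17.2% and 15.3% of all tested genes. The part of these cells in the values was not tested beyond leaving out the 3 libraries.

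Without those 3 libraries the diet counts changed little for leukocyte integrins: 5 of 7 tested rose in WT-labelled and 6 of 7 in KO-labelled mice. Of 12 stromal integrins 7 rose and 1 fell in WT-labelled mice and 8 rose in KO-labelled mice, and of 8 laminin chains 1 rose and 3 fell and 1 rose and 2 fell. WT-labelled mice have none of these libraries, so their changed counts come from the spread and filter shared with the other groups. The 24.6% and 23.5% of all tested genes that rose belong to the fit with all libraries. The counts without the 3 libraries were not set against a share of all genes. Marker counts of stromal cells are from the fit with all libraries, where 17.2% and 15.3% of all tested genes fell. Of 10 fibroblast and progenitor markers 5 rose and 2 fell in WT-labelled mice and 4 rose in KO-labelled mice. Mural and smooth muscle markers had 3 and 4 risen of 9, Schwann cell markers 0 and 1 of 2, platelet markers 0 of 2 in both, and the epididymis list 0 of 4 in both. Their part in the stromal integrin differences was not tested.

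Low-level members complete the family. Itga8 reached 2.47 FPKM, in HFD KO 2, and Itga2, Itga10 and Itgb8 at most 1.07, 0.37 and 3.16 FPKM in any library. Itga2b, the platelet alpha chain, was at 0.18 to 1.8 FPKM. The platelet receptor genes Gp1ba, Gp1bb and Gp6 never exceeded 0.67 FPKM, and Gp9 reached 1.97 FPKM, in HFD KO 4. Other markers of the platelet list were higher, with Pf4 at 33.01 to 244.87 FPKM and Ppbp at 0.76 to 15.55 FPKM. Itgbl1, a secreted relative, was tested with differences of -0.20 ± 0.39 (adjusted p = 0.702) and 0.32 ± 0.39 (adjusted p = 0.537).

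With all libraries in the fit, each laminin chain that passed the test fell. Lama4, the alpha chain of adipocyte and vessel basement membranes (GRCm38.p6, chromosome 10, 38965515 to 39110188), was the most expressed laminin in chow WT and level with Lamc1 in chow KO (55.0 ± 11.5 and 54.8 ± 10.9 FPKM). Measured levels were 72.8, 83.2, 74.1 and 80.1 FPKM in chow WT, 64.9, 39.1, 61.7 and 54.4 in chow KO, 64.5, 36.3, 31.6 and 46.4 in HFD WT and 25.3, 36.1, 30.1 and 26.1 in HFD KO. All HFD values lay under the chow values of the same genotype, with chow KO 2 the lowest on chow. Lama4 fell by 0.83 on the log2 scale in WT-labelled mice (SE 0.20, adjusted p = 0.00475) and by 0.87 in KO-labelled mice (SE 0.20, adjusted p = 0.00423). No library left out ended either call.

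Lamb1 and Lamb2 are the 2 main beta chains. Lamb1 was at 69.5, 63.3, 78.5 and 69.1 FPKM in chow WT, 56.8, 37.1, 49.0 and 59.5 in chow KO, 66.2, 37.6, 41.1 and 41.2 in HFD WT and 40.7, 34.7, 45.7 and 27.6 in HFD KO. HFD WT 1 fell within the chow WT range, and the KO-labelled groups overlapped. Lamb1 fell by 0.61 on the log2 scale in WT-labelled mice (adjusted p = 0.0211), a call lost without chow WT 3, HFD WT 2, HFD WT 3 or HFD WT 4 (adjusted p 0.0525 to 0.0689) and with a constant sum per library. The difference in KO-labelled mice was -0.44 ± 0.20 (adjusted p = 0.0907), past the threshold without chow KO 2 (adjusted p 0.0278) and with quantile normalization.

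Lamb2, the beta chain of vessel and muscle basement membranes, was at 41.5, 48.6, 41.9 and 43.9 FPKM in chow WT, 29.2, 37.0, 25.4 and 34.0 in chow KO, 31.8, 22.1, 13.95 and 29.8 in HFD WT and 11.9, 30.3, 17.3 and 26.7 in HFD KO. The WT-labelled groups did not overlap, while HFD KO 2 and HFD KO 4 lay within the chow KO range. Lamb2 fell by 0.88 on the log2 scale in WT-labelled mice (adjusted p = 0.0164), a call lost without HFD WT 3 (adjusted p 0.0598). The difference in KO-labelled mice was -0.59 ± 0.27 (adjusted p = 0.0933). It passed the threshold without HFD KO 2 (adjusted p 0.0368), without all 3 epididymal libraries, and with median-of-ratios or quantile scaling.

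Lamc1, the gamma chain of most laminins, did not pass the test in either genotype. Its levels were 53.6, 65.3, 59.1 and 63.4 FPKM in chow WT, 69.4, 46.0, 46.9 and 56.9 in chow KO, 97.8, 75.5, 59.1 and 84.0 in HFD WT and 54.1, 67.7, 74.3 and 46.4 in HFD KO. The differences were 0.37 ± 0.18 (adjusted p = 0.116), past the threshold without HFD WT 3 (adjusted p 0.0465), and 0.14 ± 0.18 (adjusted p = 0.569). Lama2, of muscle and nerve, had differences of 0.02 ± 0.18 and -0.09 ± 0.18, and the sign of the first changed to -0.14 with quantile normalization and -0.03 with median-of-ratios scaling. Lama5, of epithelia and vessels, was at 0.57 to 6.67 FPKM with differences of 0.76 ± 0.39 (adjusted p = 0.127) and 0.79 ± 0.39 (adjusted p = 0.117). In KO-labelled mice Lama5 passed the threshold without chow KO 2 (adjusted p 0.00637).

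Lamb3, Lamc3 and Lama3 were low and did not pass the test in either genotype. Lamb3, a beta chain of epithelia, had differences of 0.66 ± 0.37 and 0.50 ± 0.37, Lamc3 of -0.35 ± 0.30 and -0.45 ± 0.30, and Lama3 of -0.11 ± 0.31 and 0.49 ± 0.31. Lamc3 passed in KO-labelled mice without HFD KO 2 (adjusted p 0.0336). Lama1, under the filter, was at 0.69, 0.6, 0.73 and 0.61 FPKM in chow WT and 0, 0.03, 0.08 and 0.07 in HFD WT, and at 0.53, 1.27, 0.53 and 1.26 in chow KO and 0.56, 0.18, 0.23 and 2.56 in HFD KO. Its WT-labelled groups did not overlap.

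**Figure D4:**
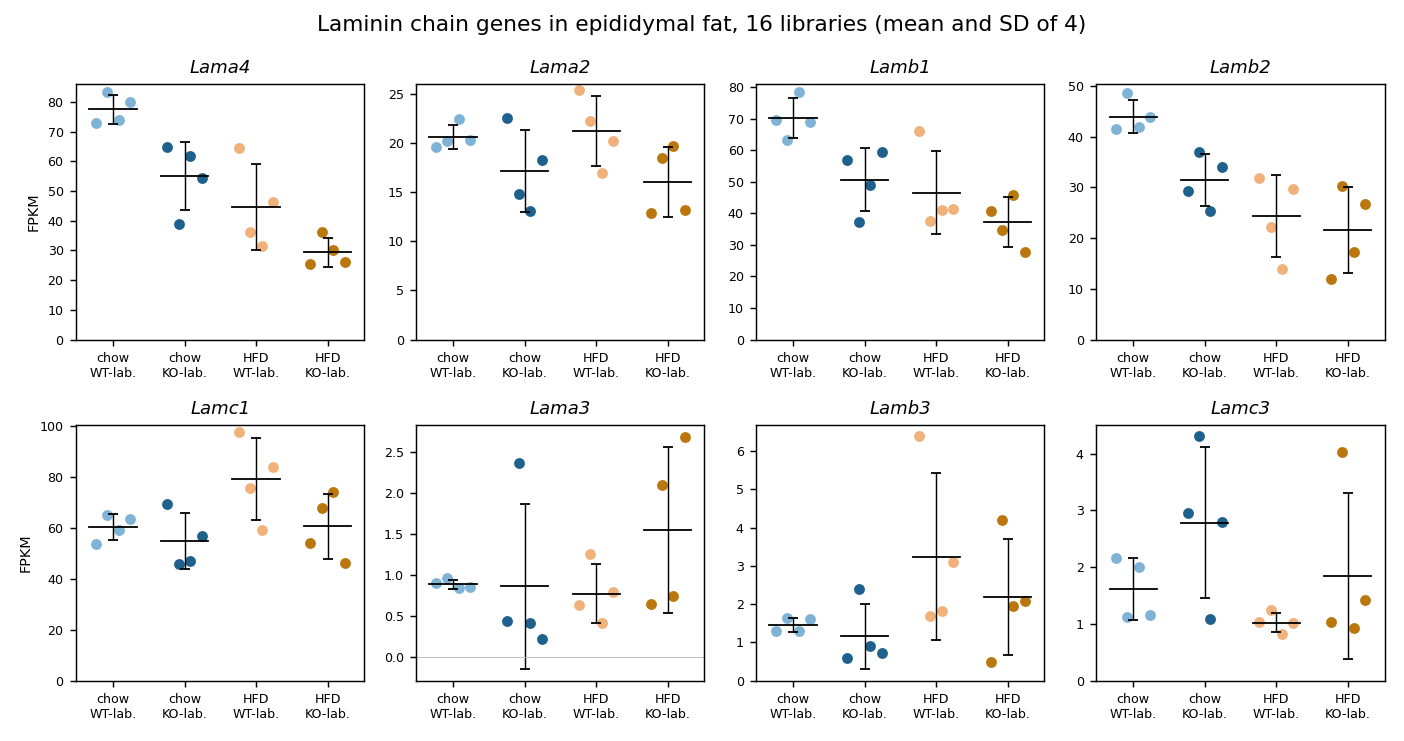
FPKM of 8 laminin chain genes in each of the 16 libraries, with the mean (line) and SD (bar) of the 4 mice of each group, on linear axes of different range. Lama4 is lower in each HFD group than in the chow group of its genotype, Lamc1 overlaps in all groups, and Lama3 is highest in chow KO 2, HFD KO 2 and HFD KO 4.

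Adipocyte markers were lower on HFD too. The list of 12 summed to 17815 to 41387 FPKM in the chow libraries and 3471 to 18833 FPKM in the HFD libraries. Of its members 9 fell in WT-labelled and 10 in KO-labelled mice, with 0 risen. The fallen shares were 75% and 83.3%, against 17.2% and 15.3% of all tested genes. Of 10 endothelial markers 0 rose or fell in WT-labelled mice and 1 rose in KO-labelled mice, where 24.6% and 23.5% of all tested genes rose. The part of adipocyte RNA in the laminin differences was not tested.

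In all, 13 of the 30 genes had diet groups that did not overlap in WT-labelled mice and 9 in KO-labelled mice, against 46.9% and 28.7% of all tested genes.

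The partners of integrins were taken from 3 lists. Of 23 tested adhesion adaptors, which link integrins to actin and kinases, 9 rose and 4 fell in WT-labelled mice (median 0.44) and 10 rose and 1 fell in KO-labelled mice (median 0.51). These are 39.1% and 17.4%, then 43.5% and 4.35%, against 24.6% and 17.2%, then 23.5% and 15.3%, of all tested genes. Fermt3, the kindlin that switches on leukocyte integrins, rose from 10.8 to 51.4 FPKM (1.98 ± 0.37, adjusted p = 0.000797) and by 2.54 ± 0.37 (adjusted p = 0.000217). Actn1, an actin cross-linker of adhesions, rose by 2.12 ± 0.29 and 2.50 ± 0.29, and Tns3, a tensin, by 1.50 ± 0.26 and 1.67 ± 0.26. Ptk2b, a focal adhesion kinase of blood cells, rose by 1.20 ± 0.15 in KO-labelled mice. Lims2, an adaptor bound to integrin-linked kinase, fell by 1.64 on the log2 scale in WT-labelled mice (adjusted p = 0.000559).

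Of 15 tested ligands and regulators of leukocyte integrins 6 rose in WT-labelled mice and 7 in KO-labelled mice, with 0 fallen, or 40% and 46.7% risen against 24.6% and 23.5% of all tested genes. Icam1, the ligand of the Itgal and Itgam pairs on vessel walls, rose by 1.21 ± 0.29 (adjusted p = 0.00416) and 1.52 ± 0.29 (adjusted p = 0.00131). Rap1b, a small GTPase that activates integrins, rose by 1.10 ± 0.21 and 1.18 ± 0.21, and Fyb, an adaptor of this route in blood cells, by 2.13 ± 0.42 and 2.96 ± 0.42. Skap2, its partner in myeloid cells, rose by 1.24 ± 0.28 in WT-labelled mice, and Apbb1ip, which carries Rap1 to talin, from 10.8 to 49.2 FPKM in KO-labelled mice.

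Of 20 tested partners of laminins and other matrix ligands 3 rose and 2 fell in WT-labelled mice (median -0.15) and 3 rose and 1 fell in KO-labelled mice (median -0.04). The shares, 15% risen in both and 10% and 5% fallen, lie under those of all tested genes (24.6% and 23.5% risen, 17.2% and 15.3% fallen). Spp1, osteopontin, a ligand of the Itgav and Itga9 pairs, rose by 5.83 ± 1.31 (adjusted p = 0.00289) and 6.55 ± 1.31 (adjusted p = 0.00175), with a mean of 0.58 FPKM in chow WT and 227 ± 322 FPKM in HFD WT. Tnc, tenascin, a ligand of Itga9, rose by 2.01 ± 0.44 and 2.06 ± 0.44. Col15a1, a basement membrane collagen, rose by 1.21 ± 0.29 in WT-labelled mice, and Hspg2, perlecan, by 0.95 ± 0.31 in KO-labelled mice. Ntn4, a netrin that binds laminin, fell by 0.77 and by 0.59 on the log2 scale.

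The comparison of genotype labels gave 0 of the 30 genes past the threshold on either diet. On chow 1.41% of all tested genes passed (178) and on HFD 0.0316% (4), and by limma 5 of the 30 had an unadjusted p under 0.05 on each diet. The count stayed at 0 under every alternative that was run. On chow, 8 of the 30 had groups that did not overlap, against 15.2% of all tested genes, and all 8 were lower in the KO-labelled mice (6.25% of all tested genes): Itgb2, Itga1, Itga11, Itgb1, Itgb5, Lama4, Lamb1 and Lamb2. Their differences were between -0.61 (Itga1, adjusted p = 0.406) and -0.35 (Itgb1, adjusted p = 0.228). Relative depth was also lower in every chow KO than in every chow WT library, and its part was not tested. On HFD 0 of the 30 had groups apart, against 6.83% of all tested genes.

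On HFD, Itgax was at a mean of 98.4 ± 61.2 FPKM in HFD WT and 48.7 ± 22.4 FPKM in HFD KO, a difference of -0.93 ± 0.36 (adjusted p = 0.361, 95% interval -1.70 to -0.15). Itga7 differed by -0.98 ± 0.36 (adjusted p = 0.348), Lama4 by -0.55 ± 0.20 (adjusted p = 0.35), Itgad by -0.70 ± 0.35 (adjusted p = 0.445) and Itgb4 by 0.95 ± 0.38 (adjusted p = 0.366). None of these passed after adjustment over all tested genes, although the unadjusted interval of Itgax leaves out 0. Itgax was not alone in this, as 5 of the 30 genes had an unadjusted p under 0.05 by limma on HFD. The differences of Itgam and Itgb2 were -0.27 ± 0.47 and -0.26 ± 0.46, and their sign changed without HFD WT 3 (0.13 and 0.19), without HFD KO 4 (0.20 and 0.11) or without the 3 libraries with epididymal markers (0.44 and 0.17). Across the partner lists 0 genes passed on HFD. On chow 1 did: Lims2 fell from a mean of 109.5 FPKM in chow WT to 44.1 FPKM in chow KO, by 1.31 on the log2 scale (adjusted p = 0.0342).

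**Figure D5:**
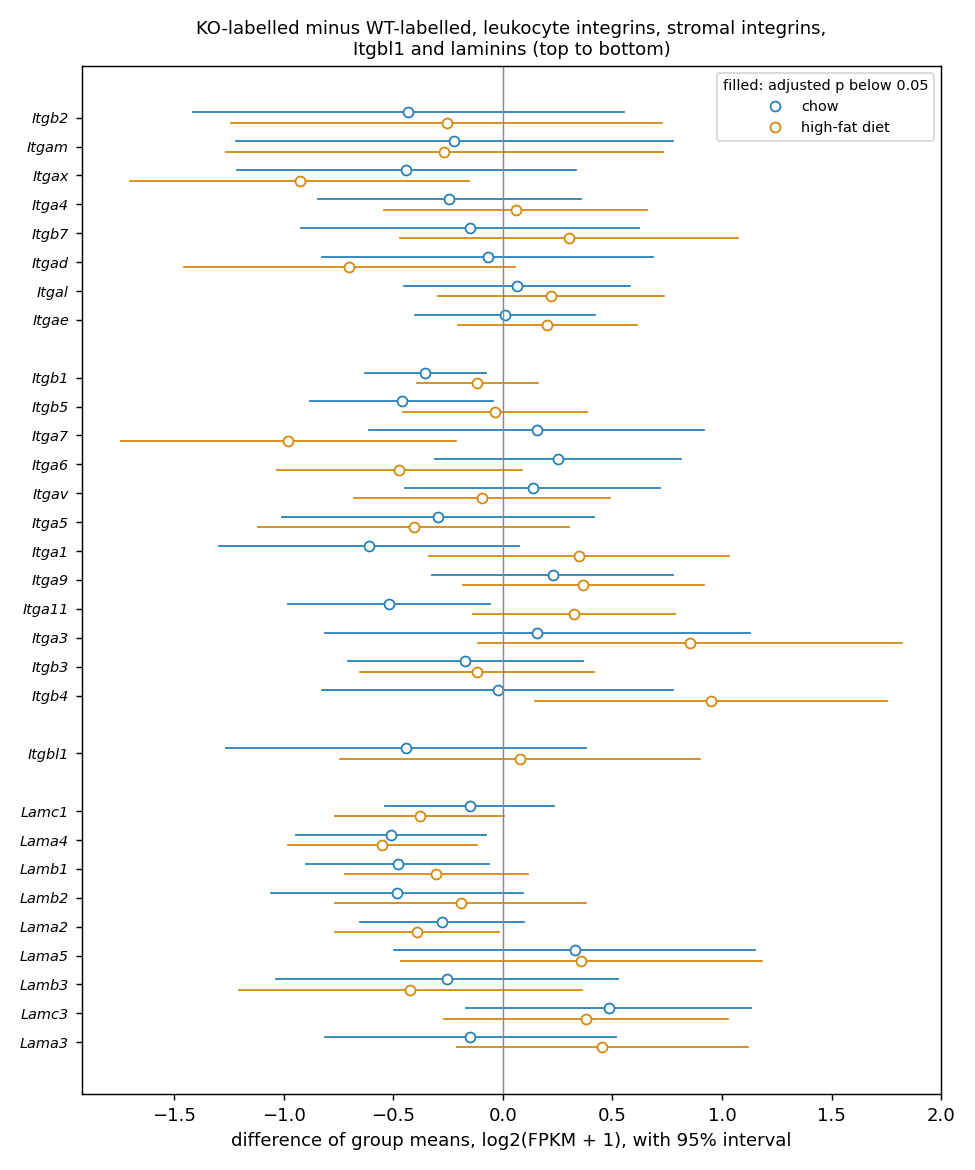
Difference between KO-labelled and WT-labelled group means on the log2(FPKM + 1) scale with its 95% interval for the 30 tested genes, on chow (blue) and HFD (orange), with open points for adjusted p of 0.05 or more. All points are open, and the lowest are Itga7 at -0.98 and Itgax at -0.93 on HFD.

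Whether the diet difference itself depended on the genotype label was tested with the interaction, which subtracts the difference between labels on chow from the one on HFD. It passed for 0 of the 30 genes, against 0.292% of all tested genes (37), and 2 of the 30 had an unadjusted p under 0.05. These were Itga11, 0.84 ± 0.31 (adjusted p = 0.324), and Itga7, -1.14 ± 0.51 (adjusted p = 0.459). The calls made in 1 genotype and not in the other, such as those of Itgb7, Itgb5, Itga7 and Lamb2, were thus not shown to differ between genotypes.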

How the data were processed

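The authors deposited a gene table of FPKM values for 16 libraries, rounded to 2 decimals. Per the labels, TRIzol was used for RNA, an MGIEasy set for the libraries and a BGI-seq machine for paired reads. STAR 2.7 and the builds GRCm38.p6 and mm10 are named in the submitters' processing notes; the sources used here do not give the counting tool, annotation or strand. FPKM carries no counts, so the depth of a single value is unknown and intervals come from the spread between mice only. Per the labels, each group is 4 mice.

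A gene was tested where 4 or more of 16 libraries reached 1 FPKM: 12667 of 20101, with 7434 under the filter and 14408 circular RNA entries kept apart. log2(FPKM + 1) was fitted with limma 3.58.1 in R 4.3.3 (4 group means, 1 fit, variance trend), with Benjamini-Hochberg adjustment over all tested genes and a threshold of 0.05. The code was tested on simulated data. All 38 genes matched the RefSeq gene table, and exon overlaps are from the GENCODE annotation.

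Genes given with values per library are those past the threshold in any comparison and the tested leukocyte integrins, with Lamc1 and Lama1 added after their values were seen; of each partner list up to 4 genes with the smallest p per comparison are named among those that passed. Other genes are named to account for all 38. The genes that share exon bases with Itgad, Itga4 or Itgam, and the platelet genes, are named because they touch a result. The 4 promoters shown were chosen after the values were seen. One further gene that the naming rule covers is not reported here. The genes and lists were chosen with earlier results of these data known. Alternatives were 3 scalings (median-of-ratios, constant sum, quantile), no filter, a filter on a mean of 5 FPKM, pseudocounts of 0.1 and 0.5, no variance trend, a replicate block, only the groups compared, and leaving out each library or the 3 with epididymal markers.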

Additional observations from a re-analysis of the deposited data

Results flagged for a closer look

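In 11 of 120 sets of 4 libraries (30 genes in 4 groups) the highest or lowest value was separated from the other 3 by most of the range of the set (Dixon's test), where chance gives about 1 in 20. Of these, 3 were in chow KO 2, the library with the most epididymal transcripts, where Krt8, Krt18 and Krt19 were also high: Itga3 at 11.7 FPKM against 1.99 to 2.52 in the other 3, Lama3 at 2.37 against 0.22 to 0.44 and Lama5 at 5.4 against 0.57 to 1.35. HFD KO 2, with the highest smooth muscle markers, had Lama5 at 6.67 against 2.63 to 3.12 and Lamc3 at 4.02 against 0.93 to 1.42. The part of these other cells in the values was not tested.

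Among HFD WT libraries, replicate 1 had Lamb1 at 66.2 FPKM against 37.6 to 41.2, replicate 3 had Itgal at 4.59 against 1.59 to 2.04, and replicate 4 had Itgad at 23.9 against 7.73 to 9.77. The chow WT libraries varied little, so small gaps stood out there: Itga5 in replicate 2 at 5.39 FPKM against 6.79 to 6.83, Itgb2 in replicate 4 at 23.1 against 25.1 to 25.4 and Itga1 in replicate 1 at 11.4 against 13.0 to 13.3.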

How the results depend on the processing

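The numbers of integrin and laminin genes past the threshold ranged from 7 to 13 risen and 2 to 5 fallen in WT-labelled mice and from 10 to 15 risen and 1 to 4 fallen in KO-labelled mice over all alternatives run, and the 3 genotype and interaction counts stayed at 0. The 1 fallen gene in KO-labelled mice became 4 with quantile normalization, 2 with median-of-ratios scaling and 2 without the 3 libraries with epididymal markers. Leaving out 1 library at a time gave 2 to 5 fallen genes in WT-labelled and 1 to 3 in KO-labelled mice. Over all genes, the chow genotype count of 178 was 115 with the replicate block, 357 with only the groups compared and 55 to 159 with 1 library left out. The HFD genotype count of 4 was 8 with quantile normalization, 9 with median-of-ratios scaling, 0 at a mean FPKM of at least 5, 19 without the 3 libraries, 2 with only the groups compared and 3 to 10 with 1 library left out. The interaction count of 37 was 18 with the replicate block and 12 to 46 with 1 library left out. The cause was not tested.

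Signs changed for genes that had not passed. For the diet in WT-labelled mice Lama2 went to -0.14 with quantile normalization and -0.033 with median-of-ratios scaling, and with 1 library left out the ranges were -0.064 to 0.12 for Lama2, -0.13 to 0.24 for Itgal, -0.022 to 0.27 for Itgb4 and -0.50 to 0.037 for Itgbl1. In KO-labelled mice the values without the 3 libraries were -0.076 for Itga1, -0.14 for Itga3 and -0.032 for Itgbl1, and Itga3 was -0.072 with quantile normalization. With 1 library left out the ranges were -0.29 to 0.58 for Itga3, -0.35 to 0.075 for Itga7 and -0.20 to 0.045 for Lama2. For the genotype on HFD, Itgam and Itgb2 were 0.44 and 0.17 without the 3 libraries, and ranged from -0.65 to 0.20 and from -0.69 to 0.19 with 1 left out.

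Replicate numbers do not pair the mice: of 24 same-number pairs 8 had deviations correlated above 0.1, and 4 of 16 libraries correlated best with their own number. With the replicate block the call of Itgb1 in WT-labelled mice was lost, so that 3 and not 4 stromal integrins rose, and the counts of the leukocyte integrins and laminins stayed as they were. The depth behind low genes such as Itgae is unknown, which limits what their differences can show.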

Other observations

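The balance between chains of a complex is given here as values with no test. FPKM of Lamc1 over that of Lama4 was 0.736 to 0.798 in chow WT, 0.760 to 1.18 in chow KO, 1.52 to 2.08 in HFD WT and 1.78 to 2.46 in HFD KO, so that every HFD library lay above every chow library. FPKM of Itgb1 over the summed FPKM of its alpha partners was 1.33 to 1.61 in chow WT, 1.04 to 1.18 in chow KO, 0.704 to 1.22 in HFD WT and 1.07 to 1.20 in HFD KO. The lowest of these, HFD WT 1, is the library with the highest Itga7, 107 FPKM. For this ratio the diet groups overlapped in KO-labelled mice and not in WT-labelled mice. Itgb2 over its alpha partners was 1.33 to 1.56 in chow WT and 1.20 to 1.34 in chow KO. On HFD it was 0.98 to 1.69 in HFD WT and 1.40 to 1.82 in HFD KO. Here the diet groups overlapped in WT-labelled mice and not in KO-labelled mice.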
